A study of Homo sapiens with 12 samples.

Results

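Messenger RNA was compared between knockdown of PU.1 and knockdown of PSPC1 in OCIAML5, a human acute myeloid leukemia cell line. The comparison used 8 of the 12 libraries of the study, taken from 2 count tables joined on the gene symbol. It asked of each gene whether the change after PU.1 knockdown, set against its own controls, differed from the change after PSPC1 knockdown, set against its own controls. Of 60648 genes in both tables, 17159 had enough counts to be tested and 9639 were well counted, with a mean CPM of at least 5 in each of the 4 groups (CPM, a gene's counts scaled to a library of fixed size by TMM). Among the well-counted genes, 1272 changed in opposite directions under the 2 knockdowns and 2574 changed under 1 knockdown only with a called difference between the effects. Those genes were chosen by the 3 tests (each knockdown and their difference), so their values under these tests are given below as a description.

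The PSPC1 experiment held 2 control and 2 PSPC1-knockdown libraries of OCIAML5, and the PU.1 experiment held 2 control and 2 PU.1-knockdown libraries with controls of its own. Control and PSPC1-knockdown libraries of MOLM13, another acute myeloid leukemia line, were also sequenced, with 2 libraries in each group. All cells had been infected with lentivirus made in HEK293T cells and then either selected with puromycin or sorted for green fluorescent protein. OCIAML5 grew in α-MEM with 20% serum and 10 ng/mL of human GM-CSF, and MOLM13 in RPMI 1640 with 10% serum. The hairpin sequences and the number of hairpins per target are not given in the labels. Whether libraries of 1 group are separate cultures is not stated in the labels, and p-values therefore measure only how far these libraries spread, which may be technical. CPM values are relative, since nothing measured the amount of RNA in a cell, and a change of the cell types in a culture cannot be told apart from a change per cell.

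PU.1, the product of SPI1, is an ETS-family transcription factor that binds purine-rich elements and drives the genes of monocytes, granulocytes and B cells. PSPC1 is an RNA-binding protein of nuclear paraspeckles, bodies built around the long noncoding RNA NEAT1, and it also takes part in transcription and RNA processing. Many acute myeloid leukemias depend on a balance of myeloid transcription factors, among them PU.1.

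Total counts ran between 15.8 and 22.7 M for the 4 PSPC1-experiment libraries of OCIAML5, and the PU.1 experiment was deeper at 26.3 to 39.7 M. The variance between the libraries of an OCIAML5 group was 2.71 to 5.35 times that of counting alone. Mitochondrially encoded genes took 14.3% of counts in both PSPC1-knockdown libraries against 12 and 10.8% in their controls, and 9.84 to 10.6% in the 4 libraries of the PU.1 experiment. Markers of other cell types ranged widely. Sums cover only the markers with enough counts to be tested. The 2 tested of 12 epithelial and fibroblast markers together stood between 0.2 and 1.4 CPM in the 8 libraries. The 1 tested of 14 erythroid markers stood between 1.66 and 5.41 CPM. The 5 tested of 11 B lymphocyte markers summed to 2.3 to 26.8 CPM. The 3 tested of 15 T and NK lymphocyte markers summed to 24.5 to 109 CPM, of which NCAM1, an adhesion molecule, made up 24.3 to 108 CPM. The 7 tested of 13 megakaryocyte markers summed to 127 to 420 CPM. Of that sum FLI1 made up 107 to 259 CPM, and THBS1 made up 179 and 182 CPM after PU.1 knockdown. The 15 tested of 22 monocyte and macrophage markers summed to between 486 and 662 CPM. CD14, CD68 and FCGR3A had too few counts to be tested, so the line showed part of the monocytic set. The 2 control groups belong to separate experiments, and 9.72% of well-counted genes differed by at least 1.5-fold between them. An experiment effect and a difference between the control cells cannot be told apart, so control levels are given beside many of the genes and lists they touch. A gene or list without them need not have equal controls.

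The targeted genes came first. SPI1 (GRCh38 chromosome 11, 47354860 to 47378576) had 225 and 202 CPM in the PU.1 controls, while the PU.1-knockdown libraries had 47 and 45.8 CPM, for a log2 change of -2.20 ± 0.0578 (SE; edgeR quasi-likelihood test, adjusted p = 9.3e-33). The PSPC1 controls had 209 and 187 CPM of SPI1 and the PSPC1-knockdown libraries 208 and 223 CPM, a log2 change of 0.12 ± 0.0545 (edgeR, adjusted p = 0.064). That change passed the threshold without the first PSPC1 control library, at 0.17 (edgeR, adjusted p = 0.013). PSPC1 (chromosome 13, 19674752 to 19783019) fell from 103 CPM in both controls down to 19.5 and 19.7 CPM under its own knockdown, by 2.39 ± 0.073 on the log2 scale (edgeR, adjusted p = 3.1e-30). PU.1 knockdown lowered it too: controls of 105 and 112 CPM compare with 59.2 and 57.7 CPM, and it fell by 0.89 ± 0.0588 (edgeR, adjusted p = 8.5e-18). The 2 targets were therefore not symmetric: the PU.1-knockdown cells carried less PSPC1 message than their controls, and PSPC1 overlaps the antisense gene PSPC1-AS2, whose reads can be separated only by strand.

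Over all 17159 genes the difference between the knockdown effects was called higher, toward PU.1 knockdown, for 3905 genes (22.8%) and lower for 3927 genes (22.9%) at an adjusted p of 0.05 (edgeR). PU.1 knockdown alone was called higher for 26.9% and lower for 29.2% of the genes tested, and PSPC1 knockdown for 27.3% and 29.6%. With libraries scaled by size alone the PU.1 calls shifted from 4621 higher and 5002 lower to 6144 and 3785. Against this background, 564 well-counted genes (5.85% of the 9639) were up after PU.1 knockdown and down after PSPC1 knockdown, and 708 (7.35%) were down after PU.1 knockdown and up after PSPC1 knockdown. A further 422 were up and 725 were down with PU.1 knockdown only, while 721 were up and 706 were down with PSPC1 knockdown only. The classes that moved the same way in both were larger for falls, with 1438 genes that fell to a different extent and 1112 without a called difference. Genes that rose in both numbered 695 with a called difference and 760 without. The remaining 1788 genes fell in none of these classes. Just inside the limit of 5 CPM stood SLC66A3 at 5.0 CPM in its lowest group and POLR3GL at 5.01 CPM, and just outside stood TRAIP and STAG3L5P, each at 4.99 CPM. Below the limit, another 181 genes passed as up with PU.1 and down with PSPC1 knockdown, and 75 as the reverse.

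**Figure D1:**
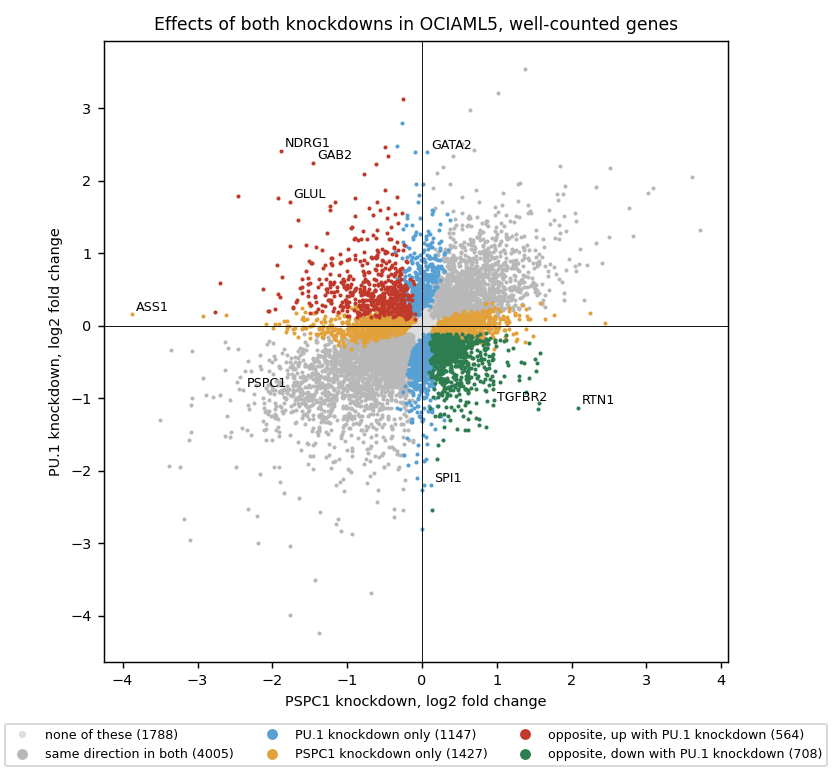
Each point is 1 of the 9639 well-counted genes, with the log2 fold change after PSPC1 knockdown on the horizontal axis and after PU.1 knockdown on the vertical axis, coloured by class. The 564 genes up with PU.1 and down with PSPC1 knockdown fill the upper left, with NDRG1, GAB2 and GLUL at its edge, and the 708 genes with the reverse pattern fill the lower right, with RTN1 at its edge.

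Among the genes up after PU.1 knockdown and down after PSPC1 knockdown were those of glutamine synthetase, the cystine transporter and a cytokine signalling adaptor. At least 1.5-fold in each direction was reached by 99 of the 564 genes, with medians of 0.91 after PU.1 knockdown and -0.95 after PSPC1 knockdown on the log2 scale. NDRG1 (chromosome 8, 133237171 to 133302022), a stress-induced cytoplasmic protein, had 82.7 and 83.7 CPM in the PSPC1 controls and 24.1 and 20.8 CPM after PSPC1 knockdown. In the PU.1 experiment it went the other way, from 123 and 121 CPM to 648 and 646 CPM. The changes of -1.88 ± 0.066 and 2.41 ± 0.0479 were apart by 4.29 ± 0.0806 on the log2 scale. GLUL (chromosome 1, 182381704 to 182392206), glutamine synthetase, had nearly equal controls at 536 and 583 CPM in the PSPC1 experiment and 590 and 604 CPM in the PU.1 experiment. It read 167 and 161 CPM after PSPC1 knockdown and 1970 and 1950 CPM after PU.1 knockdown, so the 2 knockdowns left levels more than 10-fold apart from a common start. The log2 changes were -1.77 ± 0.0454 and 1.71 ± 0.0423.

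SLC7A11 (chromosome 4, 138164097 to 138242349), the cystine and glutamate antiporter, had 61.1 and 58.7 CPM in the PSPC1 controls and 17.9 and 13.4 CPM after PSPC1 knockdown. Its PU.1 controls read 9.31 and 11.6 CPM and its PU.1-knockdown libraries 36.8 and 34.8 CPM. The log2 changes of -1.92 ± 0.106 and 1.76 ± 0.103 were opposite, but the PU.1 controls lay 2.46 below the PSPC1 controls on the log2 scale, and the level after PU.1 knockdown stayed under that of the PSPC1 controls. SLC7A11 also overlaps the antisense gene SLC7A11-AS1. GAB2 (chromosome 11, 78215297 to 78418348), an adaptor of cytokine receptor signalling, read 41.2 and 39.3 CPM in the PSPC1 controls and 13.3 and 16.4 CPM after PSPC1 knockdown. Its levels were 26.2 and 25.2 CPM in the PU.1 controls and 121 and 124 CPM after PU.1 knockdown, so the 2 PU.1-knockdown libraries were the highest of the 8. ZBTB16 (chromosome 11, 114059593 to 114250676), the transcription factor PLZF, went from 44.6 and 45.2 to 18.6 and 19.8 CPM with PSPC1 knockdown and from 137 and 139 to 417 and 418 CPM with PU.1 knockdown, from controls that differed by 1.61 on the log2 scale.

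The other genes named in this direction were CDH24, a cadherin, OAF and COL6A1, a collagen VI chain. CDH24 (chromosome 14, 23047062 to 23057538) changed by -2.46 ± 0.0974 with PSPC1 and by 1.79 ± 0.0715 with PU.1 knockdown on the log2 scale, between 8.14 CPM in the lowest and 97.1 CPM in the highest library. Its controls were unequal, at 49.1 and 46.9 CPM in the PSPC1 experiment and 28.6 and 27.0 CPM in the PU.1 experiment. COL6A1 (chromosome 21, 45981737 to 46005050) had controls of 13.3 and 13.5 CPM and of 11.3 and 13.5 CPM, then 6.03 and 4.96 CPM after PSPC1 knockdown and 29.2 and 31.2 CPM after PU.1 knockdown. OAF (chromosome 11, 120210767 to 120230332) changed by -1.66 ± 0.087 and 1.46 ± 0.0535, with PU.1 controls 1.18 above the PSPC1 controls. Control levels were often unequal in this class: 18.6% of the 564 and 34.3% of the 99 had control groups at least 1.5-fold apart, against 9.72% of all well-counted genes, and 64 of the 99 remain if those genes are set aside.

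**Figure D2:**
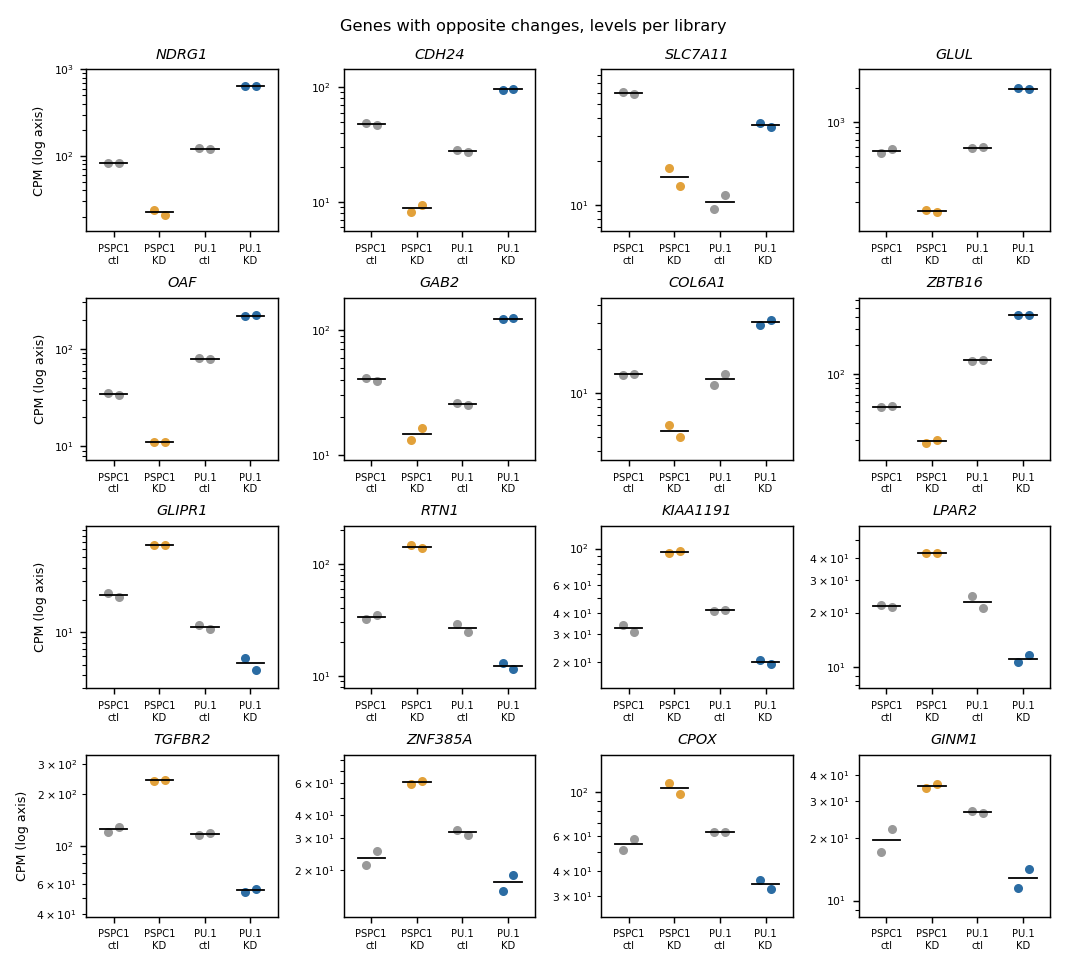
CPM of the 16 named genes with opposite changes, on log axes, with 1 point per library and a bar at the mean of the 2 libraries of each group. In the top 8 panels the PSPC1-knockdown libraries (orange) lie below their controls (grey) and the PU.1-knockdown libraries (blue) above theirs. In the lower 8 panels the order is reversed. The genes were chosen among those without overlap between knockdown and control libraries.

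The reverse pattern, down after PU.1 knockdown and up after PSPC1 knockdown, took in the receptors TGFBR2 and LPAR2. Here 62 of the 708 genes reached at least 1.5-fold each way, with medians of -0.77 and 0.76. Control groups were at least 1.5-fold apart for 10.3% of the 708 and 16.1% of the 62, beside 9.72% of all well-counted genes. TGFBR2 (chromosome 3, 30606502 to 30694142), the type II receptor of transforming growth factor beta, had 121 and 129 CPM in the PSPC1 controls and 116 and 119 CPM in the PU.1 controls. It reached 241 and 243 CPM after PSPC1 knockdown and 54.2 and 56.3 CPM after PU.1 knockdown, changes of 0.95 ± 0.0518 and -1.09 ± 0.0528. The 4 control libraries thus lay within 116 to 129 CPM, with the knockdown libraries well outside on either side. LPAR2 (chromosome 19, 19623668 to 19628930), a receptor for lysophosphatidic acid, showed the same arrangement: 22 and 21.5 CPM became 42.7 and 42.2 CPM with PSPC1 knockdown, and 24.8 and 21.2 CPM became 10.7 and 11.7 CPM with PU.1 knockdown.

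RTN1 (chromosome 14, 59595976 to 59870966), a reticulon of the endoplasmic reticulum, had the largest PSPC1 change of the 8 genes named in this direction, from 31.8 and 34.8 to 146 and 137 CPM, a log2 change of 2.09 ± 0.0794. After PU.1 knockdown it went from 28.7 and 24.4 to 13 and 11.4 CPM, a change of -1.13 ± 0.0892. GLIPR1 (chromosome 12, 75480680 to 75503853), which overlaps KRR1 on the opposite strand, went from 23.2 and 21.3 to 65.7 and 65.3 CPM with PSPC1 knockdown and from 11.8 and 10.8 to 5.81 and 4.45 CPM with PU.1 knockdown. CPOX (chromosome 3, 98579446 to 98593723), an enzyme of heme synthesis, changed by 0.95 ± 0.0725 with PSPC1 knockdown and -0.87 ± 0.071 with PU.1 knockdown. ZNF385A (chromosome 12, 54369133 to 54391298), a zinc finger protein, changed by 1.39 ± 0.0955 and -0.91 ± 0.0916, and GINM1 (chromosome 6, 149566294 to 149591748), a membrane glycoprotein, by 0.87 ± 0.111 and -1.04 ± 0.106. KIAA1191 (chromosome 5, 176346061 to 176361968) had 33.8 and 30.8 CPM in the PSPC1 controls and 93.9 and 97.2 CPM after PSPC1 knockdown. Its levels were 41.5 and 42.2 CPM in the PU.1 controls and 20.7 and 19.5 CPM after PU.1 knockdown.

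Promoter sequences were read for the genes whose RefSeq start lay in the table used (GRCh38.p14, 10898 of the genes tested, 250 bases before the start to 50 after). The PU.1 element searched was GAGGAAGT on either strand, present in 2.54% of all 27305 promoters. It was in 25 of 587 promoters of the genes down with PU.1 and up with PSPC1 knockdown (4.26%) and in 6 of 431 of the genes with the reverse pattern (1.39%), beside 2.55% of the well-counted genes. Among genes down with PU.1 knockdown only it was in 11 of 600 (1.83%), and among those up with PU.1 knockdown only in 8 of 324 (2.47%), so the share was not higher in all genes lower after PU.1 knockdown. Genes changed by PSPC1 knockdown only held it in 20 of 588 that rose (3.4%) and 17 of 586 that fell (2.9%). Genes that fell in both with a called difference held it in 41 of 1173 (3.5%), and the other classes that moved the same way in 2.06 to 2.33%. Windows around the match are printed for 3 genes that were lower after PU.1 knockdown and higher after PSPC1 knockdown: KIAA1191, ATP6V0D1, a subunit of the proton pump that acidifies lysosomes, and GAPT, an adaptor that binds GRB2. The search covered all of these bases, while the windows printed hold only bases before the RefSeq start. Gene positions are from the GENCODE annotation, whose starts can differ: the KIAA1191 window, and that of CDT1 below, overlap the GENCODE gene. The windows are on the gene's strand and 5′ to 3′, with the match in capitals.
KIAA1191 (GRCh38 chr5:176361947-176362024, minus strand): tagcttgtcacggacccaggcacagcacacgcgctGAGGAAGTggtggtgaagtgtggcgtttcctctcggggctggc
ATP6V0D1 (GRCh38 chr16:67481284-67481361, minus strand): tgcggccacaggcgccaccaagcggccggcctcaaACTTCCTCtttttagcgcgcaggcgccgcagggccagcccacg
GAPT (GRCh38 chr5:58491340-58491417, plus strand): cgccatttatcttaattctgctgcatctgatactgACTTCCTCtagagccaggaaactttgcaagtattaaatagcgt

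For KIAA1191 and ATP6V0D1 the match began 182 and 169 bases before the start, and for GAPT 60 bases before it. TNFAIP2, of the NF-kB and inflammatory list described below, also had a match, 203 bases before the start, and its window is not printed. ATP6V0D1 stood at 74.9 and 78.5 CPM in the PSPC1 controls and 139 and 141 CPM after PSPC1 knockdown, and went from 83.5 and 80.4 to 50.4 and 51.6 CPM with PU.1 knockdown. Other elements were searched in the same windows: TGATGNAA, an element bound by ATF4 (a transcription factor induced by amino acid shortage), TTTGGCGC or TTTCCCGC of E2F cell cycle factors, and CCGGAAGT of other ETS factors, which shares GGAAGT with the PU.1 element but cannot match at the same place. Among the lists described below, the E2F letters were in 15 of 27 DNA replication promoters (55.6%). They were in 2.31% of all promoters and 4.16% of those of well-counted genes. The ATF4 letters were in 5 of 20 ATF4 target promoters (25%), against 3.67% of all promoters and 1.49% of those of well-counted genes. The PU.1 letters were in 4 of 21 promoters of PU.1-dependent myeloid genes and 3 of 10 of MHC class II genes. The windows of CDT1, which licenses replication origins, HERPUD1, a protein of degradation at the endoplasmic reticulum, and AARS1, the alanyl-tRNA synthetase, show the E2F letters in the first and the ATF4 letters in the others. The matches of CDT1, HERPUD1 and AARS1 began 35, 176 and 187 bases before the start. A match is a description of the letters and not of binding.
CDT1 (GRCh38 chr16:88803719-88803788, plus strand): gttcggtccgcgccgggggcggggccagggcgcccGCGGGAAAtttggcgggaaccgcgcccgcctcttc
HERPUD1 (GRCh38 chr16:56931931-56932008, plus strand): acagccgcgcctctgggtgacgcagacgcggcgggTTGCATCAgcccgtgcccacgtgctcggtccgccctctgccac
AARS1 (GRCh38 chr16:70289651-70289728, minus strand): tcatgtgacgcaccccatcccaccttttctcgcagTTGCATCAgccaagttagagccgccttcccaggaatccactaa

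Among genes that changed with PU.1 knockdown only, 45 rose and 49 fell by at least 2-fold while staying under 1.2-fold and uncalled with PSPC1 knockdown. Control groups were at least 1.5-fold apart for 35.6% of the 45 and 22.4% of the 49. GATA2 (chromosome 3, 128479427 to 128493185), a transcription factor of progenitors and mast cells, went from 45.8 and 42.6 to 228 and 234 CPM, a log2 change of 2.39 ± 0.0584. With PSPC1 knockdown it read 17.9 and 18.1 CPM against 17.4 and 16.8 CPM, a change of 0.07 ± 0.0922 from controls that were 1.34 lower on the log2 scale. GBP2 (chromosome 1, 89106132 to 89150456), an interferon-induced GTPase, rose to 80.5 and 74.8 CPM from 13.7 and 15.8 CPM, whereas its PSPC1-experiment libraries stood between 12 and 14.1 CPM. VAT1 (chromosome 17, 43014605 to 43025123), a vesicle membrane protein, and STXBP5 (chromosome 6, 147204425 to 147390476), the syntaxin-binding protein tomosyn, changed by 1.96 ± 0.0516 and 1.95 ± 0.0676 with PU.1 knockdown and by -0.08 ± 0.0614 and 0.01 ± 0.0824 with PSPC1 knockdown. By the rule that chose them, all 4 genes lay above both of their controls in both PU.1-knockdown libraries. GATA2 and STXBP5 overlap antisense genes (GATA2-AS1, STXBP5-AS1) and GBP2 overlaps GBP7 on its own strand, so reads in the shared stretches could be split.

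DUSP6 (chromosome 12, 89347232 to 89353271), the phosphatase that switches off ERK, stood in the 6 libraries without PU.1 knockdown between 80.7 and 88.3 CPM. After PU.1 knockdown it read 18.8 and 19.3 CPM, a change of -2.19 ± 0.0684. HDAC9 (chromosome 7, 18086949 to 19002416), a class IIa histone deacetylase, went from 40.5 and 42.3 to only 5.6 and 6.22 CPM, a change of -2.80 ± 0.0854. Its PSPC1-experiment libraries read 113 to 118 CPM in controls and knockdown alike, so the PU.1 controls already lay 1.47 lower on the log2 scale. FYB1 (chromosome 5, 39105255 to 39274528), an adaptor of integrin and immune receptor signalling, went from 42.8 and 38.3 to 9.26 and 7.8 CPM with PU.1 knockdown and stayed between 17.4 and 23.1 CPM in the PSPC1 experiment.

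With PSPC1 knockdown only, 40 genes rose and 102 fell by the same limits. For 15% of the 40 and 17.6% of the 102, control groups were at least 1.5-fold apart. TIGAR (chromosome 12, 4307763 to 4354593), a p53-induced phosphatase that diverts glycolytic flux to the pentose phosphate pathway, rose from 12.6 and 14.1 CPM to 60.9 and 65.4 CPM. Its PU.1 controls had 13.6 and 13.4 CPM and its PU.1-knockdown libraries 14.7 and 15.5 CPM. ARRDC4 (chromosome 15, 97960698 to 97973838), an arrestin-like protein, reached 48.9 and 44.9 CPM from 8.8 and 8.38 CPM, but its 4 libraries of the PU.1 experiment all stood at 40.5 to 44.3 CPM. The PSPC1 controls of ARRDC4 were therefore the low group, 2.21 under the PU.1 controls on the log2 scale. SPATA20 (chromosome 17, 50543058 to 50555852) and TSPYL4 (chromosome 6, 116249961 to 116254140) changed by 1.48 ± 0.0733 and 1.76 ± 0.0923 with PSPC1 knockdown and by -0.14 ± 0.073 and 0.15 ± 0.0888 with PU.1 knockdown.

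ASS1 (chromosome 9, 130444929 to 130501274), argininosuccinate synthase of arginine synthesis, had the largest difference of the 4 genes named here. It moved from 118 and 125 to 8.14 and 8.44 CPM with PSPC1 knockdown, a change of -3.87 ± 0.0911, and from 34.5 and 32.1 to 38.5 and 36.1 CPM with PU.1 knockdown. The PU.1 controls lay 1.85 under the PSPC1 controls. DENND5A (chromosome 11, 9138825 to 9265390), an exchange factor of Rab GTPases, had nearer controls, at 68.7 and 74.1 CPM and at 54.5 and 60.5 CPM, and read 9.43 and 9.41 CPM after PSPC1 knockdown. PPM1E (chromosome 17, 58755869 to 58985176), a protein phosphatase that overlaps TRIM37 on the opposite strand, stood between 30.6 and 34.4 CPM in 6 libraries and at 5.17 and 5.3 CPM after PSPC1 knockdown. HSDL2 (chromosome 9, 112379937 to 112472410), a hydroxysteroid dehydrogenase-like protein, changed by -2.08 ± 0.0888 with PSPC1 knockdown and 0.02 ± 0.0718 with PU.1 knockdown.

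The absence of a call in the other knockdown rested on small changes. ASS1 passed as higher after PU.1 knockdown without the second PU.1-knockdown library, at 0.23 (edgeR, adjusted p = 0.04), DENND5A without the second PU.1 control library, at 0.21 (edgeR, adjusted p = 0.032), and SPATA20 passed as lower without either PSPC1 control library, at -0.16 each time (edgeR, adjusted p = 0.041 and 0.042).

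**Figure D3:**
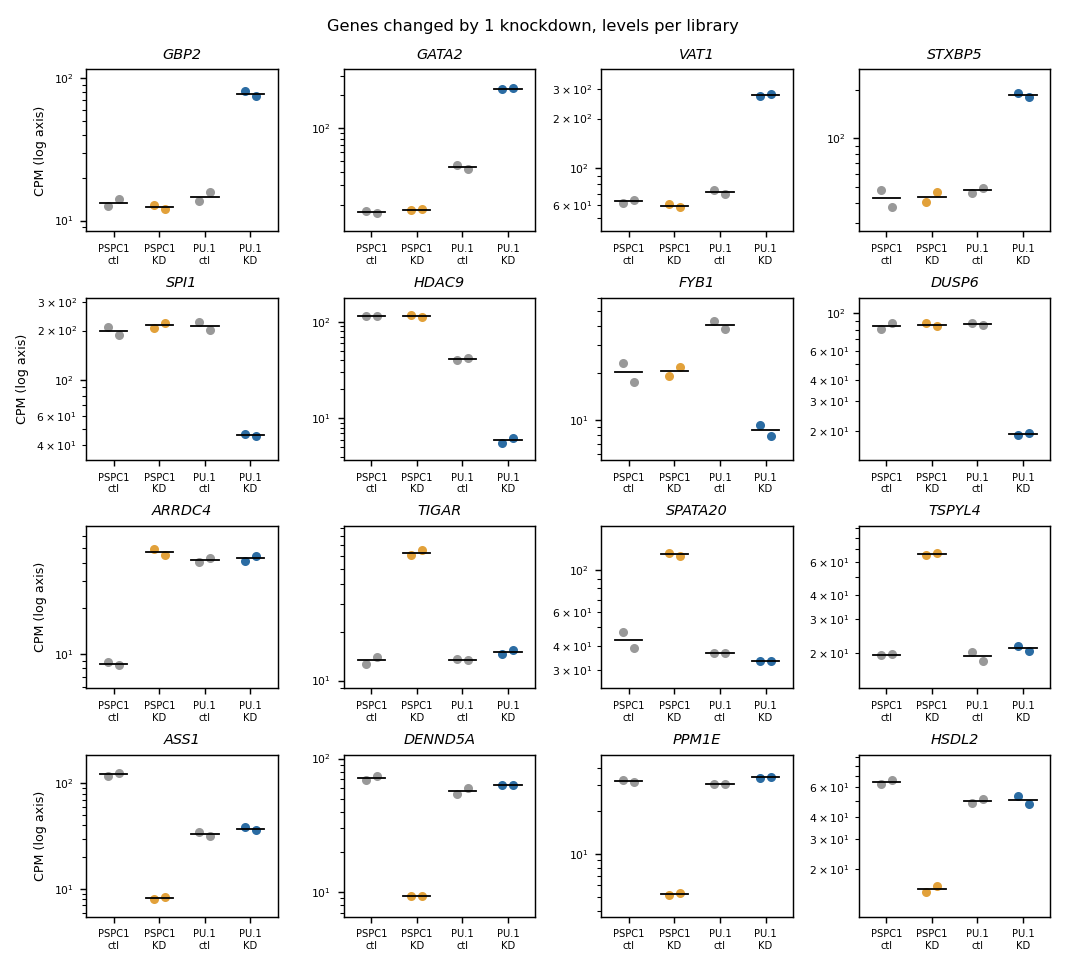
CPM of the 16 named genes that changed with 1 knockdown, on log axes, with 1 point per library and a bar at the mean of each group of 2. In the top 8 panels the PU.1-knockdown libraries (blue) stand apart from their controls and in the lower 8 the PSPC1-knockdown libraries (orange) do. The choice of genes required this separation. ARRDC4, ASS1 and HDAC9 also show control groups (grey) at unequal levels.

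Gene lists were then read under both knockdowns. Over all genes tested the median log2 change was 0.02 with PU.1 knockdown and 0.01 with PSPC1 knockdown, and the difference was called higher for 22.8% and lower for 22.9%. Most lists hold mainly well-counted genes, which were called more often: of these 9639 genes, 2671 rose and 4208 fell with PU.1 knockdown, 3076 rose and 3995 fell with PSPC1 knockdown, and the difference was higher for 2838 and lower for 3198. Their median log2 changes were -0.10 and -0.06. The myeloid genes known to depend on PU.1 were lower with PU.1 knockdown. Of 28 tested, 23 fell and 3 rose, with a median of -1.27, while with PSPC1 knockdown 12 fell and 6 rose, with a median of -0.10. The difference was called lower for 19 and higher for 5. CSF1R, the receptor of macrophage colony-stimulating factor, went from 169 and 163 CPM to 2.87 and 3.51 CPM with PU.1 knockdown and from 116 and 116 to 99.7 and 94.8 CPM with PSPC1 knockdown. MPEG1, a pore-forming protein of macrophages, went from 235 and 247 CPM to 2.04 and 1.96 CPM with PU.1 knockdown and from 905 and 894 to 445 and 453 CPM with PSPC1 knockdown. CYBA, a subunit of the phagocyte oxidase, went in opposite directions, from 228 and 217 to 95.5 and 96.9 CPM with PU.1 knockdown and from 267 and 286 to 329 and 344 CPM with PSPC1 knockdown. Among the 18 members with controls within 1.5-fold, a restriction chosen after the data were seen, 14 fell with PU.1 knockdown and the difference was lower for 13.

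The MHC class II genes, which present antigen, were lower with PU.1 knockdown in all 13 tested, with a median of -1.81, and the difference was called lower for 12. With PSPC1 knockdown 7 fell and 1 rose, with a median of -0.23. Summed over the list, levels were 4340 and 4490 CPM in the PSPC1 controls and 3630 and 3640 CPM after PSPC1 knockdown, then 2160 and 2060 CPM in the PU.1 controls and 489 and 494 CPM after PU.1 knockdown. All 13 had control groups at least 1.5-fold apart. CD74, the invariant chain, went from 1460 and 1370 to 294 and 301 CPM with PU.1 knockdown, and CTSS, the protease that trims it, moved both ways: from 61 and 65 to 34.1 and 33.4 CPM with PU.1 knockdown and from 101 and 105 to 194 and 178 CPM with PSPC1 knockdown. Among MHC class I genes, whose control groups were within 1.5-fold for all 15 tested, 3 rose and 10 fell with PU.1 knockdown and 5 rose and 6 fell with PSPC1 knockdown, and the difference was higher for 4 and lower for 8. B2M, the light chain of class I molecules, fell by 0.37 ± 0.0431 with PU.1 knockdown (edgeR, adjusted p = 3.6e-10) and rose by 0.45 ± 0.0435 with PSPC1 knockdown (edgeR, adjusted p = 1.9e-12). ERAP1, which trims peptides, went the other way, up by 0.18 ± 0.0547 with PU.1 knockdown (edgeR, adjusted p = 0.0055, or 0.1 without the first PU.1 control library) and down with PSPC1 knockdown, a change of -0.84 ± 0.0623 (edgeR, adjusted p = 4.1e-16).

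Most azurophil granule genes rose with PU.1 knockdown. Of 12 azurophil granule genes tested, 9 rose and 1 fell with PU.1 knockdown, with a median of 1.25, while with PSPC1 knockdown 2 rose and 6 fell, with a median of -0.59. The difference was higher for 10. Of these 12 genes, only 3 were well counted, and 8 had control groups at least 1.5-fold apart. Among the 4 with controls within 1.5-fold, 4 rose with PU.1 knockdown and the difference was higher for 3. With PSPC1 knockdown 1 of these 4 rose and 0 fell, so the falls with PSPC1 knockdown lay in genes with unequal controls. Their summed level went from 1250 and 1290 to 2790 and 2840 CPM with PU.1 knockdown. With PSPC1 knockdown it went from 697 and 738 to 592 and 564 CPM. Most of each sum was SRGN, the proteoglycan that packs granules. SRGN alone went from 1100 and 1150 to 2300 and 2330 CPM with PU.1 knockdown. With PSPC1 knockdown it went from 615 and 657 to 524 and 496 CPM. CFD, complement factor D, rose from 26.6 and 22.4 to 187 and 197 CPM with PU.1 knockdown and from 11.7 and 15.5 to 20.5 and 21.7 CPM with PSPC1 knockdown. PRSS57, a granule serine protease, and SRGN were opposite. PRSS57 went from 75.1 and 69.4 to 167 and 183 CPM with PU.1 knockdown. With PSPC1 knockdown it went from 43.8 and 38.7 to 29.4 and 30.5 CPM. The 7 tested of 13 mast cell and basophil markers summed to 53.3 and 49.3 CPM in the PU.1 controls. After PU.1 knockdown they summed to 241 and 244 CPM, of which GATA2 made up 228 and 234 CPM. Of the 7 of these markers that were tested, 4 rose and 1 fell with PU.1 knockdown, and the 1 that fell was FCER1A, the alpha chain of the high-affinity IgE receptor, from 5.14 and 4.41 to 0.144 and 0.0553 CPM. Control groups were at least 1.5-fold apart for 4 of these 7 markers. Whether cells with these markers became more frequent was not tested.

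Myeloid transcription factors differed more often in the direction of PU.1 knockdown. With PSPC1 knockdown 21 of 25 fell, with a median of -0.70, while with PU.1 knockdown 7 rose and 13 fell, with a median of -0.15 that became 0.00 when libraries were scaled by size alone. SPI1, the target of the PU.1 hairpin, is in this list and is counted among those 13 falls and among the lower differences. The difference was higher for 17 and lower for 3, and for 9 and 3 of the 15 members with controls within 1.5-fold. MYB, a driver of progenitor growth, went from 409 and 405 to 129 and 126 CPM with PSPC1 knockdown and from 491 and 507 to 648 and 621 CPM with PU.1 knockdown. MYC, a driver of growth and metabolism, went from 604 and 608 to 195 and 201 CPM with PSPC1 knockdown and read 658 and 630 CPM against 623 and 629 CPM in the PU.1 experiment, so that its change there, -0.04 ± 0.0409, was not called (edgeR, adjusted p = 0.4). BCL2, an inhibitor of apoptosis, and CCND2, a G1 cyclin, went the same way: BCL2 fell from 343 and 345 to 117 and 109 CPM and CCND2 from 363 and 360 to 104 and 103 CPM with PSPC1 knockdown. With PU.1 knockdown their changes were 0.09 ± 0.0446 and 0.06 ± 0.0423 (edgeR, adjusted p = 0.071 and 0.2). MCL1, another inhibitor of apoptosis, was opposite, from 289 and 300 to 533 and 550 CPM with PSPC1 knockdown and from 305 and 319 to 261 and 264 CPM with PU.1 knockdown.

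Targets of ATF4, which transport and make amino acids under stress, differed between the knockdowns in all 24 tested, each higher toward PU.1 knockdown. With PSPC1 knockdown 23 fell, with a median of -1.83, and with PU.1 knockdown 9 rose and 11 fell, with a median of -0.13 that became 0.03 when libraries were scaled by size alone. Control groups lay at least 1.5-fold apart for 18 of the 24, lower in the PU.1 experiment by a median of 1.22 on the log2 scale, or -1.22 as PU.1 minus PSPC1 controls. The summed levels show this: 3680 and 3800 CPM in the PSPC1 controls, 1260 and 1250 CPM after PSPC1 knockdown, 2080 and 2050 CPM in the PU.1 controls and 1780 and 1800 CPM after PU.1 knockdown. Among the 6 members with controls within 1.5-fold, all 6 fell with PSPC1 knockdown and all 6 differences were called. SLC7A5, the leucine transporter, went from 784 and 773 to 195 and 198 CPM with PSPC1 knockdown and read 569 and 541 CPM against 539 and 550 CPM in the PU.1 experiment. MTHFD2, a mitochondrial folate enzyme, went from 311 and 343 to 78.4 and 78.6 CPM with PSPC1 knockdown and from 142 and 152 to 166 and 172 CPM with PU.1 knockdown. Of 20 aminoacyl-tRNA synthetases, 17 fell with PSPC1 knockdown and 14 with PU.1 knockdown, and the difference was higher for 14 and lower for 3. Control groups lay at least 1.5-fold apart for 7 of the 20, and among the other 13 the difference was higher for 7 and lower for 3.

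Cell cycle genes fell in both knockdowns and further with PSPC1 knockdown. All 31 DNA replication genes tested fell in both, with medians of -0.96 for PU.1 and -1.71 for PSPC1 knockdown, and the difference was called for 26 toward a smaller fall with PU.1 knockdown and for 2 the other way. Of 28 genes of mitosis and the kinetochore, 27 fell in each, with medians of -0.96 and -1.51. CDT1 went from 119 and 113 to 50.3 and 47.3 CPM with PU.1 knockdown and from 148 and 149 to 24.6 and 24.2 CPM with PSPC1 knockdown. MKI67, the proliferation marker, went from 1210 and 1240 to 535 and 520 CPM and from 963 and 886 to 235 and 242 CPM. Control groups differed by at least 1.5-fold for 1 gene of each list. The p53 targets went the other way: 24 of 25 rose with PSPC1 knockdown, with a median of 1.12, and 19 rose and 3 fell with PU.1 knockdown, with a median of 0.49. CDKN1A, the cyclin-dependent kinase inhibitor p21, went from 338 and 328 to 995 and 1040 CPM with PU.1 knockdown and from 186 and 191 to 1250 and 1320 CPM with PSPC1 knockdown. RRM2B, a p53-induced subunit of ribonucleotide reductase, went from 102 and 104 to 331 and 314 CPM with PSPC1 knockdown and read 134 and 145 CPM against 150 and 148 CPM in the PU.1 experiment. The difference was lower for 20 of the 25, and for 15 of the 18 with controls within 1.5-fold.

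Heat shock proteins, chaperones of the cytosol, had unequal control groups. With PU.1 knockdown 14 of 15 fell, with a median of -0.47, and with PSPC1 knockdown 7 rose and 5 fell, with a median of 0.16. HSPA8, the constitutive HSP70, stood at 1130 and 1200 CPM in the PSPC1 controls and at 2880 and 3020 CPM in the PU.1 controls, whereas the knockdown libraries read 1690 and 1630 CPM for PSPC1 and 1750 and 1710 CPM for PU.1. HSPH1 and HSPA4L, 2 further HSP70-family proteins, had the same order, with the PSPC1 controls lowest and the PU.1 controls highest. HSPH1 read 267 and 278 CPM in the PSPC1 controls, 589 and 604 CPM in the PU.1 controls, then 356 and 355 CPM and 333 and 337 CPM in the knockdowns. In all, 12 of the 15 had control groups at least 1.5-fold apart, with the PU.1 controls higher by a median of 0.87 on the log2 scale, and the 3 with nearer controls fell in both knockdowns. Subunits of oxidative phosphorylation had controls within 1.5-fold in all 30 tested, and 25 fell with PU.1 knockdown, with a median of -0.53, against 12 with PSPC1 knockdown, with a median of -0.11. The difference was lower for 25 of them.

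Interferon-stimulated genes rose in both: 26 of 36 with PU.1 knockdown, with a median of 0.76, and 29 with PSPC1 knockdown, with a median of 1.2. For 11 of the 36, control groups lay at least 1.5-fold apart. Replication-dependent histone genes, whose main transcripts lack a poly(A) tail, also rose in both, 10 of 16 with PU.1 and 12 of 16 with PSPC1 knockdown, with summed levels of 98.9 and 98 CPM and of 318 and 329 CPM against 29.4 to 32.9 CPM in the 4 control libraries. A list of 10 further non-polyadenylated RNAs had 2 tested, RMRP and RN7SL1, named here after their values were seen. Both rose with PSPC1 knockdown, by 3.68 and 0.73 on the log2 scale (edgeR, adjusted p = 0.0087 and 0.032), and with PU.1 knockdown their changes were -0.90 and -0.41 (edgeR, adjusted p = 0.26 and 0.13). Together these 2 genes stood at 2.26 to 8.18 CPM in the 8 libraries, with controls at least 1.5-fold apart for both. The part of RNA selection in the histone result was not tested. Of 21 paraspeckle genes, 18 fell with PU.1 knockdown and 14 with PSPC1 knockdown, the latter including PSPC1 itself, the target of the hairpin. Another member, NUDT21, a cleavage factor subunit, fell by 0.77 ± 0.0489 and by 1.42 ± 0.0531 on the log2 scale (edgeR, adjusted p = 2.9e-18 and 8.7e-27).

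In several metabolic and housekeeping lists most genes fell in both knockdowns. Of 22 cholesterol synthesis genes, 14 fell and 3 rose with PU.1 knockdown (median -0.67) and 17 fell and 2 rose with PSPC1 knockdown (median -0.98), and the difference was higher for 7 and lower for 3. Ribosome biogenesis genes fell for 29 of 32 with PU.1 and 27 of 32 with PSPC1 knockdown, with the difference higher for 13 and lower for 4, and nuclear pore genes fell for 24 and 22 of 27. Glycolysis and hypoxia genes fell for 16 and 18 of 25, with the difference higher for 12 and lower for 5. Control groups lay at least 1.5-fold apart for 7 of these 25. Among the other 18 the difference was higher for 7 and lower for 5. Lists of signalling were mixed. Hematopoietic cytokine receptors fell for 11 and rose for 5 of 22 with PU.1 knockdown and fell for 14 and rose for 5 with PSPC1 knockdown, STAT5 targets rose and fell for 4 each of 15 with PU.1 knockdown and fell for 9 with PSPC1 knockdown, and lysosome genes rose for 10 of 25 in both while 11 fell with PU.1 and 6 with PSPC1 knockdown. NF-kB and inflammatory genes rose for 12 and fell for 5 of 19 with PU.1 knockdown and rose for 9 and fell for 3 with PSPC1 knockdown. In these signalling lists, 7 of the 22 receptors, 3 of the 15 STAT5 targets and 5 of the 19 NF-kB genes had control groups at least 1.5-fold apart. So had 4 of the 25 lysosome genes. Of 13 mitochondrially encoded genes, 8 fell with PU.1 knockdown (median -0.14, or 0.01 with libraries scaled by size alone) and 8 rose with PSPC1 knockdown (median 0.21).

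**Figure D4:**
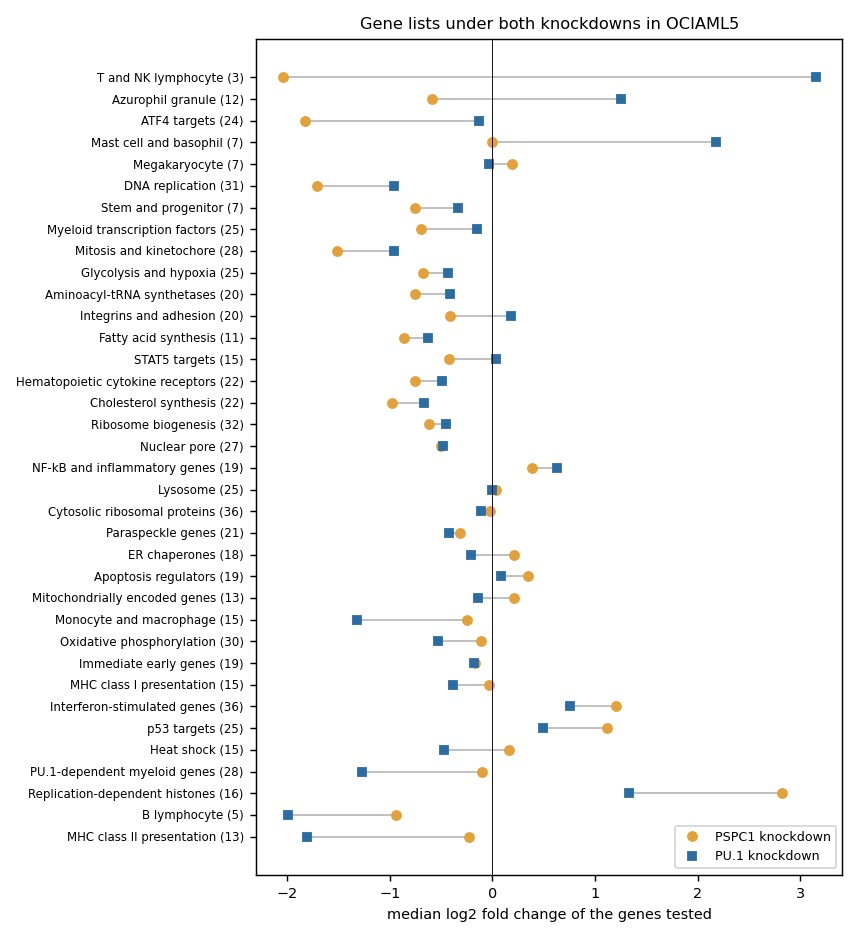
Median log2 fold change of each list with at least 3 genes tested (number in brackets), after PSPC1 knockdown (orange circles) and PU.1 knockdown (blue squares), ordered by the median difference. Azurophil granule and ATF4 target lists lie furthest to the right with PU.1 relative to PSPC1 knockdown among the lists with 12 or more genes, MHC class II and replication-dependent histones furthest to the left.

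The PSPC1 effect on these classes was measured again in MOLM13, whose 4 libraries had no part in defining them. In MOLM13, 31.6% of 14508 genes tested were higher and 33.1% lower after PSPC1 knockdown (edgeR). The classes hold well-counted genes only, and of the 9388 of these tested in MOLM13, 31.9% were higher and 41.9% lower. Of the genes up with PU.1 and down with PSPC1 knockdown in OCIAML5, 550 were tested in MOLM13, where 64.4% were lower and 14% higher after PSPC1 knockdown. The reverse class had 694 tested, with 58.6% higher and 11.8% lower. Genes changed by PSPC1 knockdown only went the same way in MOLM13 for 68.6% of 707 that had risen and 70.1% of 692 that had fallen. Genes changed by PU.1 knockdown only stood nearer the background: 30.3% higher and 25.9% lower among 409 that rose with PU.1 knockdown, and 23.2% higher and 39% lower among 707 that fell. For comparison, genes that fell in both OCIAML5 knockdowns with a called difference were lower in MOLM13 for 85.2% of 1410.

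Single genes differed between the lines. GLUL went from 267 and 261 to 111 and 107 CPM in MOLM13 and NDRG1 from 132 and 129 to 54.8 and 44.4 CPM, in the direction of OCIAML5. SLC7A11 went further, from 47.3 and 53.6 to 5.03 and 2.41 CPM. KIAA1191 rose from 33.8 and 30 to 73.3 and 73.2 CPM and LPAR2 from 45.1 and 45.4 to 91.5 and 100 CPM (edgeR, adjusted p = 1.5e-21 and 2.2e-22). TGFBR2 and GAB2 were not called in MOLM13, with changes of -0.17 ± 0.09 and -0.05 ± 0.0504 (edgeR, adjusted p = 0.085 and 0.44). GATA2, not called with PSPC1 knockdown in OCIAML5, fell with it in MOLM13 from 26.9 and 31.2 to 5.8 and 7.17 CPM (edgeR, adjusted p = 5.4e-21). SPI1 rose in MOLM13 from 248 and 239 to 319 and 344 CPM (edgeR, adjusted p = 3.5e-16). HSPA8 fell from 2130 and 2160 to 1100 and 1080 CPM in MOLM13, the reverse of its OCIAML5 change. The difference between the lines was not tested here.

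**Figure D5:**
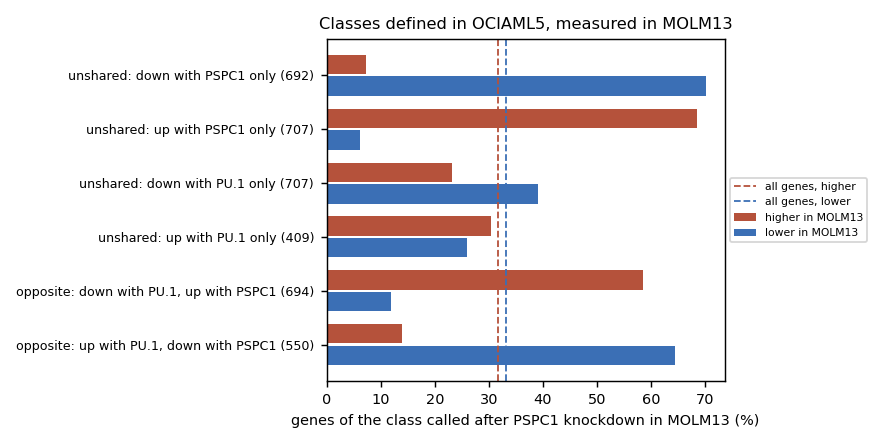
Share of the genes of each OCIAML5 class called higher (red) or lower (blue) after PSPC1 knockdown in MOLM13, in percent, with the number tested in brackets and dashed lines at the shares over all genes tested in MOLM13. In the 2 opposite classes and the 2 PSPC1-only classes, 58.6 to 70.1% of genes go the same way in MOLM13 as in OCIAML5.

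Outside the well-counted genes, the largest differences included genes that were nearly off in some groups, so levels are given and no fold. GAPT stood at 8.35 and 6.01 CPM in the PSPC1 controls and 30.7 and 36.1 CPM after PSPC1 knockdown, and at 12.7 and 12 CPM in the PU.1 controls against 0.179 and 0.166 CPM after PU.1 knockdown. In MOLM13 GAPT also rose with PSPC1 knockdown, from 20.2 and 24 to 60 and 57.5 CPM (edgeR, adjusted p = 4.2e-22). FCER1A read 2.48 and 1.98 CPM and 7.24 and 7.35 CPM in the PSPC1 experiment, then 5.14 and 4.41 CPM and 0.144 and 0.0553 CPM in the PU.1 experiment. PTPRO, a receptor phosphatase that overlaps RERG, showed the same order, with 1.92 and 1.85 CPM against 7.8 and 9.69 CPM and 1.16 and 1.47 CPM against 0.0359 and 0 CPM. FGD2, an exchange factor of Cdc42, was lower in both knockdowns in OCIAML5, from 11.7 and 10.9 to 4.05 and 4.22 CPM with PSPC1 knockdown and from 1.25 and 1.16 to 0 and 0 CPM with PU.1 knockdown, and rose with PSPC1 knockdown in MOLM13 from 15.7 and 15.4 to 53.3 and 49.1 CPM.

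The largest differences toward PU.1 knockdown were those of IGLL1, HDC, TRDV2 and RHOXF1P2. IGLL1, a surrogate light chain, read 0.564 and 0.578 CPM in the PU.1 controls and 20.5 and 19.8 CPM after PU.1 knockdown, against 0.846 and 0.924 CPM in the PSPC1 controls and 0.0431 and 0 CPM after PSPC1 knockdown. HDC, the histidine decarboxylase of mast cells and basophils, was at 0 and 0.0525 CPM in the PU.1 controls and 6.74 and 5.86 CPM after PU.1 knockdown, and between 0 and 0.066 CPM in the PSPC1 experiment. TRDV2, a T cell receptor delta segment, reached 8.75 and 9.29 CPM after PU.1 knockdown from 0.282 and 0.42 CPM. RHOXF1P2, a pseudogene, reached 7.21 and 7.55 CPM from 0.157 and 0.263 CPM. For these genes the PSPC1 experiment read under 1 CPM in all 4 libraries, and without the first PSPC1 control library the difference of RHOXF1P2 and without the second that of HDC was no longer called (edgeR, adjusted p = 1.0 each). THBS1, an adhesive glycoprotein of platelet granules, rose in both knockdowns, from 0.846 and 0.893 to 179 and 182 CPM with PU.1 knockdown and from 0.395 and 0.792 to 4.7 and 6.21 CPM with PSPC1 knockdown, and it overlaps FSIP1 on the opposite strand.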

How the data were processed

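The authors deposited raw counts by gene symbol in 1 table of 8 libraries for PSPC1 and 1 of 4 for PU.1. The submitters' processing notes name Trim Galore 0.6.7, STAR 2.7.10a, HTSeq 2.0.2, DESeq2 1.36.0 and GRCh38; no source used here gives their roles, the annotation, or how HTSeq treated strand. The libraries were made with a stranded kit, per the labels' protocols. All 12 libraries were mapped to 6 groups of 2 by their titles.

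The 8 OCIAML5 libraries were fitted together in R 4.3.3 with edgeR 4.0.16 (filterByExpr, TMM scaling, quasi-likelihood F tests, 4 residual degrees of freedom), and the 4 MOLM13 libraries alone with 2. P-values were adjusted by Benjamini-Hochberg over the genes tested, threshold 0.05. The biological coefficient of variation was 4.5%. The median SE of a log2 change among well-counted genes was 0.0732 for PU.1 and 0.0812 for PSPC1 knockdown.

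Named genes were the 2 targets, the 8 opposite genes each way with the largest smaller change and the 4 largest unshared genes per class. Opposite genes were at least 1.5-fold each way, with the libraries of both knockdowns beyond both of their own controls. Unshared genes met the limits above and that condition in the knockdown that changed. Of the 9639 well-counted genes, 7156 met the condition in both knockdowns. Also named were the 4 largest differences each way and up to 3 genes per list with the smallest adjusted p of the difference, out of 40 lists. BAX, RPL10A and FLI1, named by this rule, are described under the alternatives. CD14, CD68 and FCGR3A were chosen after their values were seen. The members and lists were chosen with earlier results of these data known. Alternatives were DESeq2 1.42.0, RLE size factors, library size alone, other filters and thresholds, each experiment alone, a replicate block and leaving out each library. The method was tested on simulated data. Positions are from GENCODE 29; promoters are from RefSeq. Python 3.11.15, pandas 2.3.3 and matplotlib 3.10.9 were used.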

Additional observations from a re-analysis of the deposited data

How the results depend on the processing

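Leaving out each library in turn, DESeq2, RLE size factors, scaling by library size alone, 1 CPM in at least 2 libraries and each experiment alone kept every count of calls and classes they were run for within 1.5-fold. With each library left out, the difference was called higher for 3554 to 3794 genes and lower for 3365 to 3842, the 2 opposite classes held 507 to 564 and 562 to 693 genes, and each shared 84.4 to 93.6% and 78.8 to 87.7% of its genes. DESeq2 called 3551 and 3421 differences, with 509 and 593 opposite genes. Scaling by library size alone moved the median of all genes to 0.17 for PU.1 and 0.11 for PSPC1 knockdown and the PU.1 calls from 4621 higher and 5002 lower to 6144 and 3785; it kept 83.9% of the genes up with PU.1 and down with PSPC1 knockdown and 62.9% of the reverse class. Under it the PU.1 changes of FLI1, BAX and RPL10A went from -0.15, -0.13 and -0.12 to 0.00, 0.03 and 0.04, and the PU.1 medians of ATF4 targets, cytosolic ribosomal proteins, mitochondrially encoded genes and myeloid transcription factors to 0.03, 0.04, 0.01 and 0.00. The PSPC1 change of RHOXF1P2 ran from -6.47 to 0.00 as libraries were left out.

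With a 2-fold minimum, calls were 1527 higher and 1071 lower for the difference, 1732 and 1041 for PU.1 and 1650 and 1729 for PSPC1 knockdown. At a mean of 20 CPM, fewer genes qualified: 370 were up with PU.1 and down with PSPC1 knockdown, 235 up with PU.1 only, 449 down with PSPC1 only and 401 up in both without a called difference. The classes with size limits then held 38 and 38 opposite genes and 15, 23, 14 and 50 unshared genes (PU.1 up, PU.1 down, PSPC1 up, PSPC1 down). At 1 CPM the classes with size limits held 173 opposite genes up with PU.1 and, in the same order, 98, 76, 95 and 171 unshared genes. With controls within 1.5-fold, 64 and 29 genes were left of the 99 opposite ones up with PU.1 and the 45 up with PU.1 only. Genes that rose in both with a called difference numbered 454 with no low-count filter and 461 at an adjusted p of 0.01.

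The labels give the groups the same replicate numbers, but nothing says that a number marks a shared batch, and same-numbered libraries did not deviate together (correlations over 10588 genes of 0.00139 in the PSPC1 and -0.0572 in the PU.1 experiment). With the replicate number as a block, 3831 differences were called higher and 3857 lower. Of 402 values of named genes, 400 kept their direction and side of the threshold under the block and 400 under DESeq2. Scaling by library size alone kept fewer, 376 of the 402, with 3 reversed.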
